A study of Mus musculus with 18 samples.

Results

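The miR-106b, miR-93 and miR-25 cluster is a set of 3 microRNAs (miRNAs) that lie together in the gene Mcm7, and its levels were followed in a mouse neuroblastoma line that expressed a normal-length or an expanded form of the TATA-binding protein (TBP). Members were the array entries whose name was exactly mmu-miR-106b, mmu-miR-93 or mmu-miR-25, 3 of the 566 mouse miRNA entries on the array. The tested cells were Neuro2A nucleofected with a 59Q-TBP-GFP fusion, whose polyglutamine tract holds 59 glutamines and is of the expanded kind that causes spinocerebellar ataxia type 17. The cells set against them received a 16Q-TBP-GFP fusion with 16 glutamines, so all groups shared nucleofection, the GFP tag and excess TBP, and untransfected cells were not analysed here. RNA was taken 24, 36 and 60 h after nucleofection, with 3 biological replicates per construct and time, which gave 6 groups and 18 one-colour arrays. Neuro2A is a single established line from a strain A mouse, the fraction of cells that took up each construct is not given in the sources used here, and these are bulk samples, in which fewer cells of a kind and less miRNA per cell cannot be told apart.

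The cluster is transcribed with Mcm7, which encodes a subunit of the replicative helicase, and the hairpins are cut from an intron of that transcript. Mcm7 is a known target of E2F transcription factors, so the cluster is tied to entry into the cell cycle. In human cells miR-106b and miR-93 are known to repress the cell cycle inhibitor p21 (CDKN1A) and E2F1, and miR-25 is known to repress the pro-apoptotic protein BIM. In mouse the cluster has been studied in the proliferation of neural stem cells.

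The 3 hairpins are shown because they are what the members have in common, a single host transcript. In the RefSeq annotation of GRCm38.p6 they occupy 498 bases of the minus strand of chromosome 5, in the order miR-106b, miR-93, miR-25, with 126 and 118 bases between neighbours. All 3 lie inside Mcm7 (chr5:138164583-138172111), and exon bounds were not used here. Capitals mark the arm that the array entry measures, which is the 5′ arm for miR-106b and miR-93 and the 3′ arm for miR-25.
miR-106b hairpin, chr5:138165737-138165818: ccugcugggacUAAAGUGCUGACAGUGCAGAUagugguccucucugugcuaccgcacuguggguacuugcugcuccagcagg
miR-93 hairpin, chr5:138165523-138165610: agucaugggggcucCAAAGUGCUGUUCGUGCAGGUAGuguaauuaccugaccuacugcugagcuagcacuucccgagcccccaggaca
miR-25 hairpin, chr5:138165321-138165404: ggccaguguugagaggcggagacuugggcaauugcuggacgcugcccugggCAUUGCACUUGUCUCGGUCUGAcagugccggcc

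The mature sequences show how the members differ from each other, and capitals mark the seed, bases 2 to 8, which pairs with target mRNAs. miR-106b and miR-93 share the seed AAAGUGC and have the same base at 16 of the 21 positions compared from the 5′ end. miR-25 carries another seed, AUUGCAC, and matches miR-106b at 5 of 21 positions, so the cluster holds members of 2 seed families.
miR-106b: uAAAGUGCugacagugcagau
miR-93: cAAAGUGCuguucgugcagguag
miR-25: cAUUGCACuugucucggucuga

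Close copies of the members come from paralogous clusters on chromosomes 14 and X and are printed because their probes could share signal with those of the members. miR-17, miR-20a, miR-20b and miR-106a have the seed of miR-106b and miR-93. Each of miR-17, miR-20a and miR-106a equals miR-106b at 18 of 21 positions, and miR-20b equals miR-93 at 20 of 23. miR-92a has the seed of miR-25 and equals it at 18 of 21 positions. Cross-hybridisation among these copies was not tested.
miR-17: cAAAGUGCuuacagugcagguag
miR-20a: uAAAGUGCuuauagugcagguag
miR-20b: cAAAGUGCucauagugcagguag
miR-106a: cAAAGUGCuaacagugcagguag
miR-92a: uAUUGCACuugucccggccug

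RefSeq gives 2 start windows for Mcm7, each of 300 bases. One is printed because Mcm7 is a known target of E2F factors. Neither Mcm7 nor E2F was measured here, and a part of E2F in these data was not tested. The motif searched was TTTCGCGC or TTTGGCGC on both strands, forms of the E2F site that do not overlap here. The window below holds 1 match, in capitals at base 267, and the other window (chr5:138171217-138171516) holds none. Of all 32851 promoter windows of this length, 267 (0.813%) hold a match. A match is a description of the letters and not evidence of binding.
Mcm7 start window, minus strand, chr5:138171834-138172133: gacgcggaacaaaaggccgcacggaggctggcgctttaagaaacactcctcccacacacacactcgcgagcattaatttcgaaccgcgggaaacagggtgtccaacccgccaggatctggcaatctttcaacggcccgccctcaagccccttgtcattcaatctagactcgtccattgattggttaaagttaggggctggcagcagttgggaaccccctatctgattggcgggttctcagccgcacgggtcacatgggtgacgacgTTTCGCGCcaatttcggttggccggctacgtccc

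Values are log2 of the background-subtracted spot intensity after division by each array's 75th percentile over 290 probes well above background on all arrays, so a value of 0 is that percentile and a difference of 1 is a doubling. The share of probe spots above background ran from 19.7% to 37.3% per array, and precision is limited by how many arrays there are. Arrays lay on 3 slides. All 24 h arrays and replicates 1 and 2 of 16Q-TBP at 36 h were on the first, replicates 2 and 3 of 59Q-TBP at 60 h on the third and the rest on the second. The 4 arrays least correlated with the others were 59Q-TBP replicate 2 at 36 h, 59Q-TBP replicate 1 at 60 h and 16Q-TBP replicates 1 and 2 at 24 h, with median correlations of 0.759 to 0.801 against 0.834 to 0.929. Among neuronal markers listed for this line of neuronal origin, miR-9 and miR-9* were above background on 0 arrays, miR-124 on 1, miR-137 on 3 and miR-7a on 11. Of 14 markers of liver, muscle, blood, epithelium and mesenchyme, only miR-143 (16 arrays), miR-145 (10) and miR-206 (8) were above background on any array.

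All 3 members were measured, to unequal depth of signal. Both miR-106b probes were well above background on all 18 arrays, the 3 miR-93 probes on 18, 18 and 14, and the 2 miR-25 probes on 17 and 12. Neither miR-25 probe was above background on 59Q-TBP replicate 2 at 36 h, where its value is the floor set for dim probes. The median coefficient of variation between spots of a probe was 6.03% and 6.28% for miR-106b, 5.19% to 12.7% for miR-93, and 7.90% and 16.9% for miR-25. No member spot was saturated. The opposite arms miR-106b* and miR-93* were above background on 0 arrays, and miR-25* was not analysed here.

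miR-106b, the first hairpin of the transcript, was most even at 24 h in the expanded-TBP cells. It read -0.56, -0.62 and -0.53 in 59Q-TBP cells at 24 h, against -1.37, -0.99 and -0.33 in 16Q-TBP cells. At 36 h it read -1.30, -2.53 and -1.84 in 59Q-TBP cells, against -0.72, -0.95 and -0.74 in 16Q-TBP cells. All 3 expanded-TBP arrays were below all 3 normal-length arrays at that time, and replicate 2 was the lowest of all 18. At 60 h the values were -0.65, -1.31 and -1.92 in 59Q-TBP cells, against -1.49, -1.44 and -1.15 in 16Q-TBP cells, and the groups overlapped, with 59Q-TBP replicate 1 the highest.

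miR-93, which shares the seed of miR-106b, was likewise lower on the 59Q-TBP arrays at 36 h. In 59Q-TBP cells at 24 h it read -1.35, -1.30 and -1.05, against -1.82, -1.53 and -0.93 in 16Q-TBP cells. The 36 h values were -1.67, -3.10 and -2.46 in 59Q-TBP cells, against -1.33, -1.62 and -1.39 in 16Q-TBP cells. The constructs again separated at 36 h, narrowly so for the nearest arrays, and they overlapped at 24 h. At 60 h miR-93 read -1.18, -2.12 and -2.47 in 59Q-TBP cells, against -2.23, -2.14 and -1.79 in 16Q-TBP cells, with expanded-TBP replicates 1 and 3 on either side of the normal-length arrays and replicate 2 among them.

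miR-25, the member of the other seed family, had the widest range. It read -1.88, -2.07 and -1.57 in 59Q-TBP cells at 24 h, against -2.32, -2.11 and -1.65 in 16Q-TBP cells. At 36 h the values were -2.79, -4.11 (the floor) and -3.62 in 59Q-TBP cells, against -2.11, -2.68 and -2.28 in 16Q-TBP cells. Every 59Q-TBP array was below every 16Q-TBP array at 36 h, as for the other two members. The 60 h values were -1.62, -3.51 and -3.80 in 59Q-TBP cells, against -3.35, -3.53 and -3.26 in 16Q-TBP cells. Replicate 1 of 59Q-TBP stood apart at 60 h, near the 24 h values, while the other two replicates lay among or below the normal-length arrays.

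**Figure D1:**
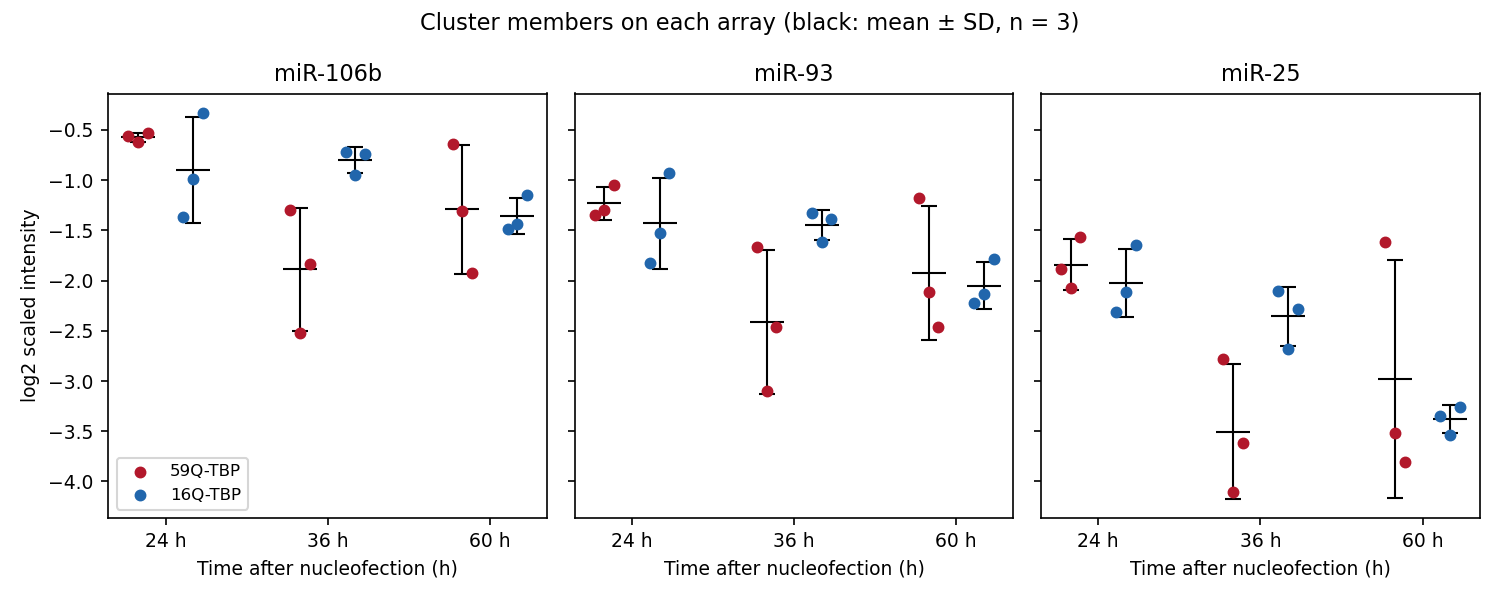
Log2 scaled intensity of miR-106b, miR-93 and miR-25 (vertical axis) on each of 18 arrays by time after nucleofection in h (horizontal axis), with 59Q-TBP in red left of 16Q-TBP in blue. Points are arrays in replicate order and black bars are the mean ± SD of 3. At 36 h the red points of each member lie below the blue ones, and at 60 h a single red point, replicate 1, lies above all others.

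Ordered by group mean, miR-93 ran from -1.23 ± 0.16 in 59Q-TBP at 24 h (SD, n = 3, as for all means here) through -1.43 ± 0.45 in 16Q-TBP at 24 h and -1.45 ± 0.15 in 16Q-TBP at 36 h. Next came -1.92 ± 0.67 in 59Q-TBP at 60 h, -2.05 ± 0.23 in 16Q-TBP at 60 h and -2.41 ± 0.72 in 59Q-TBP at 36 h. miR-25 had the same order of groups, with -1.84 ± 0.25 in 59Q-TBP at 24 h at the top and -3.50 ± 0.67 in 59Q-TBP at 36 h at the bottom. For miR-106b the top and bottom groups were the same, at -0.57 ± 0.04 and -1.89 ± 0.61, and 16Q-TBP at 36 h (-0.80 ± 0.13) and at 24 h (-0.90 ± 0.53) changed places. Neighbouring groups in these orders overlapped in their arrays, except 59Q-TBP at 24 h and 16Q-TBP at 36 h for miR-106b.

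The question put by the design is whether the expanded tract altered miRNA levels. At 36 h all 3 members were lower in 59Q-TBP cells than in 16Q-TBP cells, and none passed the test across miRNAs. The size was about 2-fold for miR-106b and miR-93 under the scaling used here. The log2 difference was -1.08 (SE 0.35) for miR-106b, -0.96 (SE 0.37) for miR-93 and -1.15 (SE 0.46) for miR-25, which are 2.12-fold and 1.95-fold for miR-106b and miR-93. For miR-25 the size depends on the floor, at which 59Q-TBP replicate 2 sits, and with a floor 4 times higher it was -0.16. In the deposited log2 values, which are of the net signal and not scaled, miR-106b and miR-93 stood at -0.17 and -0.09, where the median miRNA was at 0.31. Limma's adjusted p over 226 miRNAs was 0.201, 0.256 and 0.256, with unadjusted p of 0.00699, 0.0187 and 0.0228, a size of p (under 0.05) that 15.5% of all miRNAs had. Only 0.442% of miRNAs passed in that comparison, a single entry that was no member. The groups did not overlap for 3 of 3 members, all lower, and the same was true in that direction for 22.6% of all miRNAs. An exact two-sided permutation test gave p = 0.1 for each member, the smallest that 3 arrays against 3 allow.

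The 36 h comparison was one in which the median miRNA was itself lower by 0.19 on the log2 scale. Relative to that median the members stood at -0.89, -0.77 and -0.95. Array scaling factors were 223 to 316 intensity units in 59Q-TBP cells, against 132 to 195 in 16Q-TBP cells. Without scaling, the median miRNA was 0.47 higher and the members still lower, at -0.30, -0.24 and -0.50. Each of the 7 member probes taken alone gave a negative difference, between -0.75 and -1.34. Leaving out 59Q-TBP replicate 2 at 36 h brought miR-93 to -0.62, and leaving out 59Q-TBP replicate 1 at 60 h, which only enters the shared spread, brought miR-25 to an adjusted p of 0.0441, where 4.42% of all miRNAs passed.

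The slide bears on this time, since 1 of the 16Q-TBP arrays at 36 h shared a slide with the 3 59Q-TBP arrays. Within that slide the differences were -1.15, -1.02 and -1.22 for miR-106b, miR-93 and miR-25. The summed scaled intensity of the 5 neuronal markers on the array was 0.0553 to 0.0764 in 59Q-TBP cells at 36 h, against 0.172 to 0.222 in 16Q-TBP cells. It was 0.832 on 59Q-TBP replicate 1 at 60 h. On that array and in 16Q-TBP cells at 36 h the sum was largely miR-7a, which alone read 0.786 and 0.117 to 0.152. In 59Q-TBP cells at 36 h miR-7a was at the floor, so the sum does not describe the neuronal markers as a set. For the 14 markers of other cell types it was 0.293 to 0.402 in 59Q-TBP cells at 36 h, against 0.404 to 0.440 in 16Q-TBP cells. Their part in the result was not tested.

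At 24 h the members were 0.32 (SE 0.35), 0.20 (SE 0.37) and 0.19 (SE 0.46) higher in 59Q-TBP cells for miR-106b, miR-93 and miR-25, with limma's adjusted p between 0.626 and 0.830. The median miRNA was 0.25 higher there, so that relative to it they stood at 0.07, -0.05 and -0.07. None of the 3 passed, against 0.442% called of all miRNAs, and none had an unadjusted p under 0.05, against 20.4%. Also, 0 of 3 were free of overlap between the groups, against 10.2%. Without scaling the 24 h differences turned to -0.39, -0.51 and -0.53. The sizes rested on single arrays, with 0.09, 0.00088 and 0.04 without 16Q-TBP replicate 1, 0.61, 0.44 and 0.37 without 16Q-TBP replicate 3, and 0.30, 0.11 and 0.05 without 59Q-TBP replicate 3.

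At 60 h the differences were 0.07 (SE 0.35), 0.13 (SE 0.37) and 0.40 (SE 0.46), with limma's adjusted p between 0.947 and 0.975. No member passed, and none had an unadjusted p under 0.05, where 0.442% of all miRNAs did by either rule, and 0 members were free of overlap, against 3.54%. The sign rested on 59Q-TBP replicate 1, without which the differences were -0.26, -0.24 and -0.28. That array was the only 59Q-TBP array on the slide of the 16Q-TBP arrays, and there the difference was 0.71 for miR-106b, 0.87 for miR-93 and 1.76 for miR-25.

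Averaged over the 3 times, the difference between 59Q-TBP and 16Q-TBP cells was -0.23 (SE 0.20) for miR-106b, -0.21 (SE 0.21) for miR-93 and -0.19 (SE 0.26) for miR-25. Limma's adjusted p was 0.999 for each, no unadjusted p was under 0.05 (0.885% of all miRNAs), and 0.442% of miRNAs were called. An exact permutation test that exchanged constructs inside each time gave p of 0.373, 0.403 and 0.587, where the smallest possible was 0.00025. The 95% intervals ran from -0.66 to 0.20, from -0.66 to 0.24 and from -0.74 to 0.37. Dependence of the difference on time, tested with a moderated F test, had adjusted p of 0.215, 0.231 and 0.215. No miRNA passed it (0%), while 50 (22.1%) had an unadjusted p under 0.05, miR-106b among them (0.0268).

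**Figure D2:**
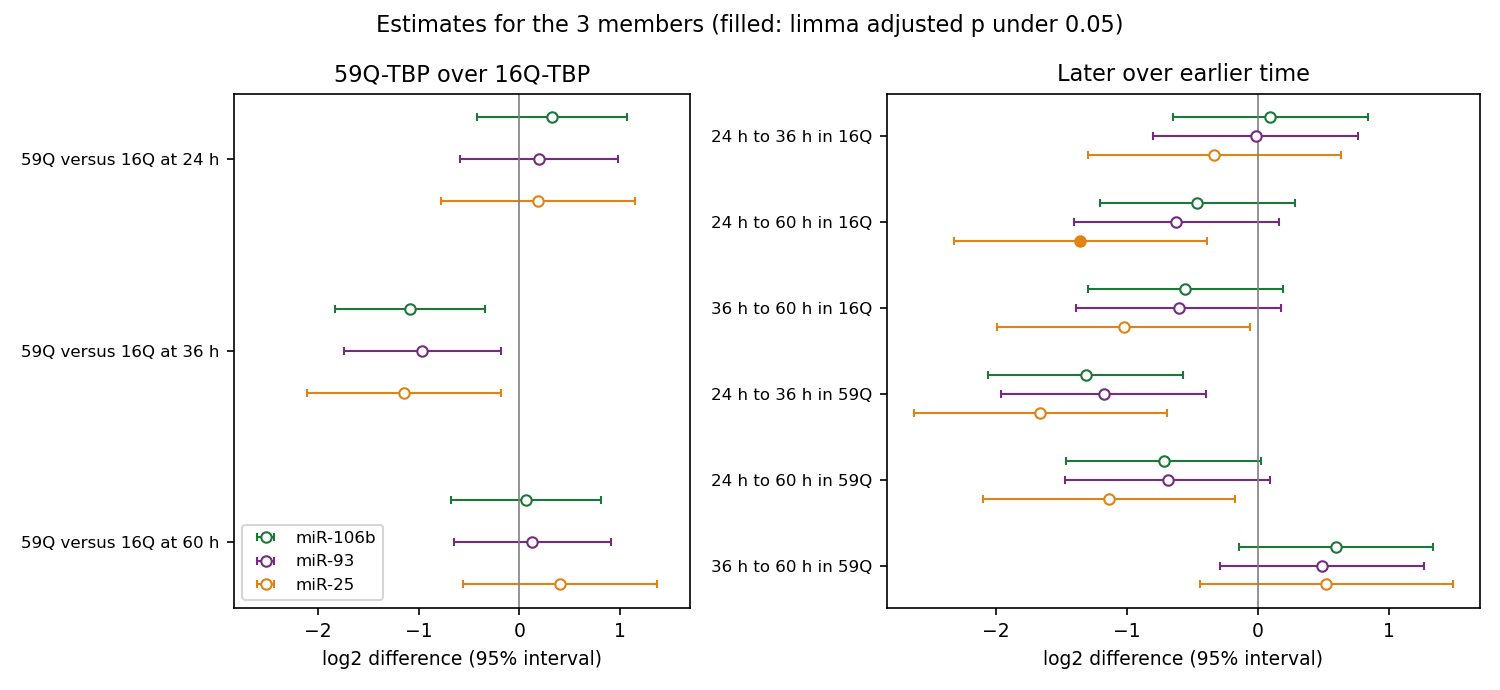
Log2 differences (horizontal axis) of the 3 members with 95% intervals from the fit over 18 arrays, for 59Q-TBP over 16Q-TBP at each time (left) and for later over earlier time within each construct (right). Filled points passed an adjusted p of 0.05, which holds only for miR-25 from 24 h to 60 h in 16Q-TBP cells. The 36 h estimates, -0.96 to -1.15, have intervals below 0.

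Over time within 59Q-TBP cells the members were lower at 36 h than at 24 h, by -1.32 (SE 0.35) for miR-106b, -1.18 (SE 0.37) for miR-93 and -1.66 (SE 0.46) for miR-25. The median miRNA was itself at -0.26, and relative to it the members stood at -1.05, -0.92 and -1.40. Limma's adjusted p was 0.0905 for each, 0 of 3 passed and 3 of 3 had an unadjusted p under 0.05, and no miRNA passed (0%), with 64 (28.3%) under an unadjusted p of 0.05. The 36 h arrays lay below the 24 h arrays for 3 of 3 members, which was also so for 24.8% of all miRNAs. Leaving out 59Q-TBP replicate 1 at 36 h gave all 3 an adjusted p of 0.0290, a setting in which 27.9% of all miRNAs passed. Leaving out 59Q-TBP replicate 1 at 60 h gave 0.0155, 0.0240 and 0.0068, where 14.2% of all miRNAs passed. The 24 h and 36 h arrays of this construct were on different slides, so time and slide cannot be told apart here.

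At 60 h, 59Q-TBP cells differed from their 24 h level by -0.72, -0.69 and -1.14 (miR-106b, miR-93, miR-25), with limma's adjusted p of 0.693 to 0.839. No member passed, 1.33% of miRNAs did, and of the unadjusted p only that of miR-25 was under 0.05 (0.0236), against 4.87% of all. For miR-106b alone the 60 h arrays were all below the 24 h arrays, against 3.1% of miRNAs. Replicate 1 at 60 h set these values, and without it miR-25 was at -1.82 with an adjusted p of 0.0057, where 7.96% of all miRNAs passed. The 60 h over 36 h differences were 0.60, 0.49 and 0.52, with limma's adjusted p of 0.334 to 0.434, and 0.885% called. The median miRNA was itself at 0.32 from 36 h to 60 h, with 69.9% of miRNAs higher, and at -0.01 from 24 h to 60 h. No member had an unadjusted p under 0.05 (11.9% of all) and no member's groups were free of overlap (7.08%). Without replicate 1 at 60 h the differences were 0.27, 0.12 and -0.16, and without replicate 2 at 36 h they were 0.28, 0.14 and 0.22.

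In 16Q-TBP cells miR-25 fell by 1.35 (SE 0.46) on the log2 scale at 60 h relative to 24 h, with limma's adjusted p of 0.0321. At 60 h only the brighter of its 2 probes was above background on the 3 arrays of this construct, so the size depends on how the dim probe was treated: the brighter probe alone gave -1.22 (adjusted p 0.0703), and a floor 4 times higher gave -0.28. It was the single member call under this processing, in a comparison in which 35.4% of miRNAs were called and 10.2% were called lower. The 60 h arrays lay below the 24 h arrays for miR-25, as for 20.4% of all miRNAs. miR-106b and miR-93 differed by -0.46 (SE 0.35) and -0.62 (SE 0.37), with limma's adjusted p of 0.317 and 0.197, and their arrays overlapped. The median miRNA was at 0.16 in that comparison, and relative to it miR-106b, miR-93 and miR-25 stood at -0.62, -0.78 and -1.51. An unadjusted p under 0.05 was met by miR-25 (0.00882) and by 46.9% of all miRNAs. Leaving out any single array of either group ended the call for miR-25, at adjusted p of 0.055 to 0.104, and normexp background correction gave -0.30 with 0.617. All 24 h arrays were on the first slide and these 60 h arrays on the second, so time and slide cannot be told apart.

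The later step held most of that difference in 16Q-TBP cells. From 36 h to 60 h the differences were -0.56, -0.60 and -1.02 for miR-106b, miR-93 and miR-25, with limma's adjusted p of 0.369 to 0.418, and only miR-25 had an unadjusted p under 0.05 (0.0388), against 12.4% of all. No member passed, against 0.442% called, while the 60 h arrays lay lower for 3 of 3 members and for 24.8% of all miRNAs. From 24 h to 36 h they were 0.09, -0.02 and -0.33, with adjusted p from 0.820 to 0.999, and 0% called. None had an unadjusted p under 0.05 (11.5% of all), and 0 of 3 were free of overlap (12.8%). The median miRNA was at -0.01 from 36 h to 60 h and at 0.15 from 24 h to 36 h.

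The 3 members were then compared with each other, since they come from a single host transcript. Across the 18 arrays the levels of miR-106b and miR-93 had a Pearson correlation of 0.981 (Spearman 0.979), and no other tested miRNA followed miR-106b more closely. The correlation was 0.908 (Spearman 0.944) for miR-106b and miR-25 and 0.946 (0.967) for miR-93 and miR-25. Permutation p was 1e-05 for each of the 3 pairs and both measures, the smallest that the permutations could give, and the adjusted values over the pairs are the same. Arrays of a group or slide are not independent, and the share of other miRNA pairs that reach this p was not counted. The p therefore does not set the cluster apart from other miRNAs. The median correlation of miR-106b with all tested miRNAs was 0.116.

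These correlations did not rest on single arrays. Without the 2 arrays farthest from the median they were 0.964, 0.883 and 0.941 in the same order of pairs. Within the first slide they were 0.950, 0.738 and 0.846, and within the second 0.983, 0.899 and 0.931, over 8 arrays each, and the third held 2 arrays. Arrays of a group share their construct and time, and after removal of the 6 group means the correlations were 0.972, 0.873 and 0.920.

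Other miRNAs followed the members nearly as well, over the same 18 arrays. The 3 closest to miR-106b were miR-101b (0.965), miR-29b (0.952) and miR-881 (0.951). Those closest to miR-93 were miR-17 (0.973), miR-106a (0.967) and miR-125b-5p (0.965), and those closest to miR-25 were let-7i (0.944), miR-106a (0.943) and miR-17 (0.928). For miR-25, 5 miRNAs ranked above it as partners of miR-93, miR-106b among them, and 15 as partners of miR-106b, miR-93 among them.

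A difference between members on the same array does not depend on how arrays were scaled, apart from values at the floor, and levels of different probes were not set against each other, so each difference is given relative to its mean over 18 arrays. Its SD over arrays was 0.11 for miR-106b minus miR-93, 0.39 for miR-106b minus miR-25 and 0.34 for miR-93 minus miR-25, beside 0.57, 0.57 and 0.83 for the levels of miR-106b, miR-93 and miR-25. The median SD of all miRNAs was 0.57. miR-106b minus miR-93 stayed within a range of 0.45 over the 18 arrays, while the pairs with miR-25 ranged over 1.26 and 1.03. The miR-25 probes were above background on only 17 and 12 arrays. The part of dim signal or of the seed in this contrast was not tested, and the spread for other miRNA pairs was not computed.

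No shift of these ratios with the construct was detected. Averaged over times, 59Q-TBP minus 16Q-TBP was -0.02 for miR-106b minus miR-93, -0.04 for miR-106b minus miR-25 and -0.03 for miR-93 minus miR-25. The same exact permutation test, two-sided, gave p of 0.740, 0.842 and 0.903, each 0.903 after Benjamini-Hochberg adjustment over the 3 pairs. At 36 h the differences were -0.12, 0.06 and 0.18, with exact p of 0.2, 0.7 and 0.2.

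The ratios with miR-25 differed between times. Centred miR-106b minus miR-25 averaged -0.28 ± 0.21, 0.07 ± 0.15 and 0.14 ± 0.64 in 59Q-TBP cells at 24, 36 and 60 h, and -0.42 ± 0.19, 0.01 ± 0.17 and 0.48 ± 0.14 in 16Q-TBP cells (SD, n = 3). In 16Q-TBP cells every 60 h array was above every 24 h array, so miR-25 was lower relative to miR-106b at the later time. The share of other miRNA pairs whose ratio separates between these groups was not counted. Of single miRNAs, 20.4% had all 60 h arrays below all 24 h arrays in 16Q-TBP cells. In 59Q-TBP cells replicates 2 and 3 at 60 h lay above every 24 h array of miR-106b minus miR-25, and replicate 1, at -0.57, did not. Centred miR-93 minus miR-25 had the same pattern, with -0.32 ± 0.14 at 24 h and 0.12 ± 0.53 at 60 h in 59Q-TBP cells, and -0.34 ± 0.11 and 0.40 ± 0.18 in 16Q-TBP cells. These shifts depended on how background was handled, and with the deposited log2 values the 60 h over 24 h shift of miR-106b minus miR-25 was 0.003, against 0.66 here.

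**Figure D3:**
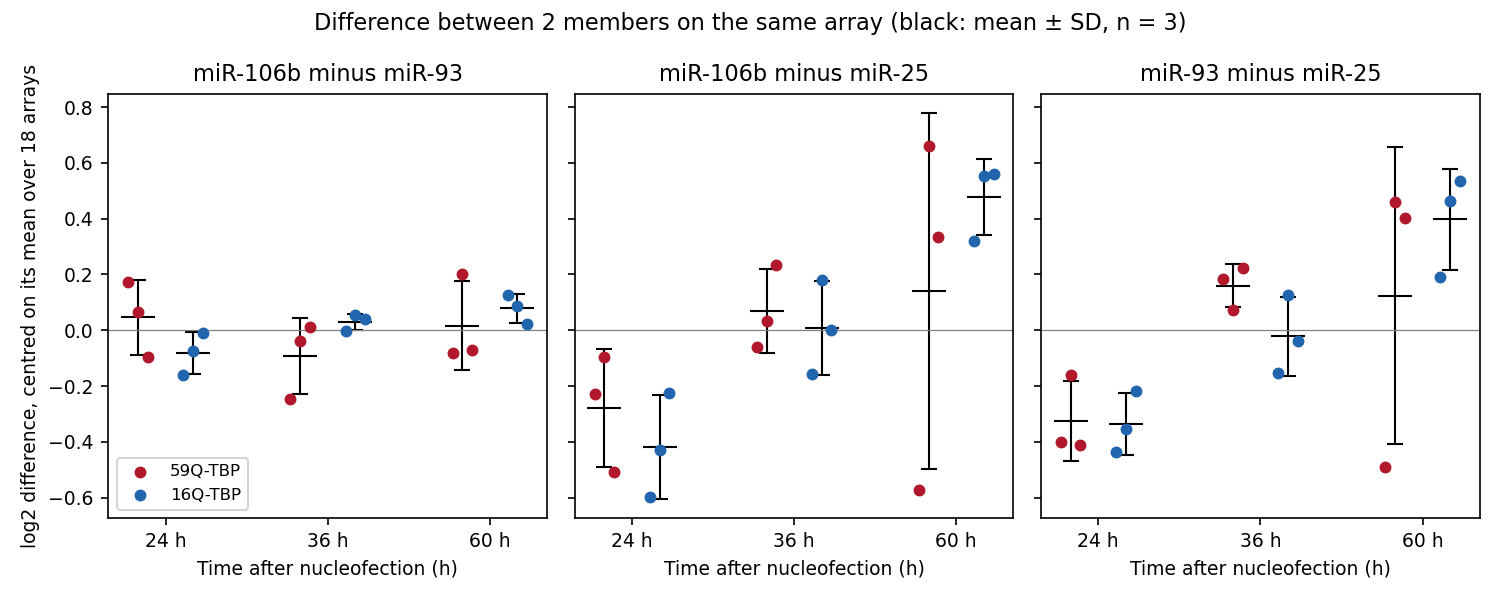
Log2 difference between 2 members on the same array, centred on its mean over 18 arrays (vertical axis), by time after nucleofection in h (horizontal axis), with 59Q-TBP in red left of 16Q-TBP in blue. Points are arrays and black bars the mean ± SD of 3. miR-106b minus miR-93 stays within a range of 0.45, and in 16Q-TBP cells every 60 h array of the 2 pairs with miR-25 lies above every 24 h array, while 59Q-TBP replicate 1 at 60 h lies among or below the 24 h arrays. How many other miRNA pairs separate in this way was not counted.

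The paralogues place the 36 h values in their families. miR-17, miR-20a, miR-20b and miR-106a, which have the seed of miR-106b and miR-93, were 4 of 4 lower in 59Q-TBP cells at 36 h, with a median of -1.10 against -0.19 for all 226 miRNAs. Of all 226 miRNAs, 144 were lower. miR-20a stood at -1.39 (SE 0.57), miR-20b at -1.34 (SE 0.57), miR-17 at -0.87 (SE 0.43) and miR-106a at -0.80 (SE 0.37). None passed, with limma's adjusted p of 0.256 to 0.364, and 3 of 4 had an unadjusted p under 0.05, against 15.5% of all miRNAs. The 4 have close sequences and could share probe signal, so they are not 4 separate results. miR-92a, with the seed of miR-25, was at -0.48 (SE 0.28, adjusted p 0.436), and its groups overlapped. The other measured residents of the paralogous clusters, miR-18a, miR-19a and miR-19b, stood at -0.73, -0.14 and -0.28, and none passed.

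miR-20a illustrates the spread of this family at 36 h, with lowest, middle and highest values of -3.28, -2.31 and -1.17 in 59Q-TBP cells, against -1.001, -0.99 and -0.61 in 16Q-TBP cells. Its groups did not overlap, as for 22.6% of all miRNAs in that direction, and its range within 59Q-TBP cells was wider than that of any cluster member. Of the other miRNAs with the miR-25 seed, miR-32, miR-92b, miR-363 and miR-367 were above background on 0 arrays, as was miR-18b. At 60 h relative to 24 h in 16Q-TBP cells, miR-92a stood at 0.09 where miR-25 fell by 1.35, and the 4 miRNAs with the miR-106b seed had a median of -0.76, none passing.

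**Figure D4:**
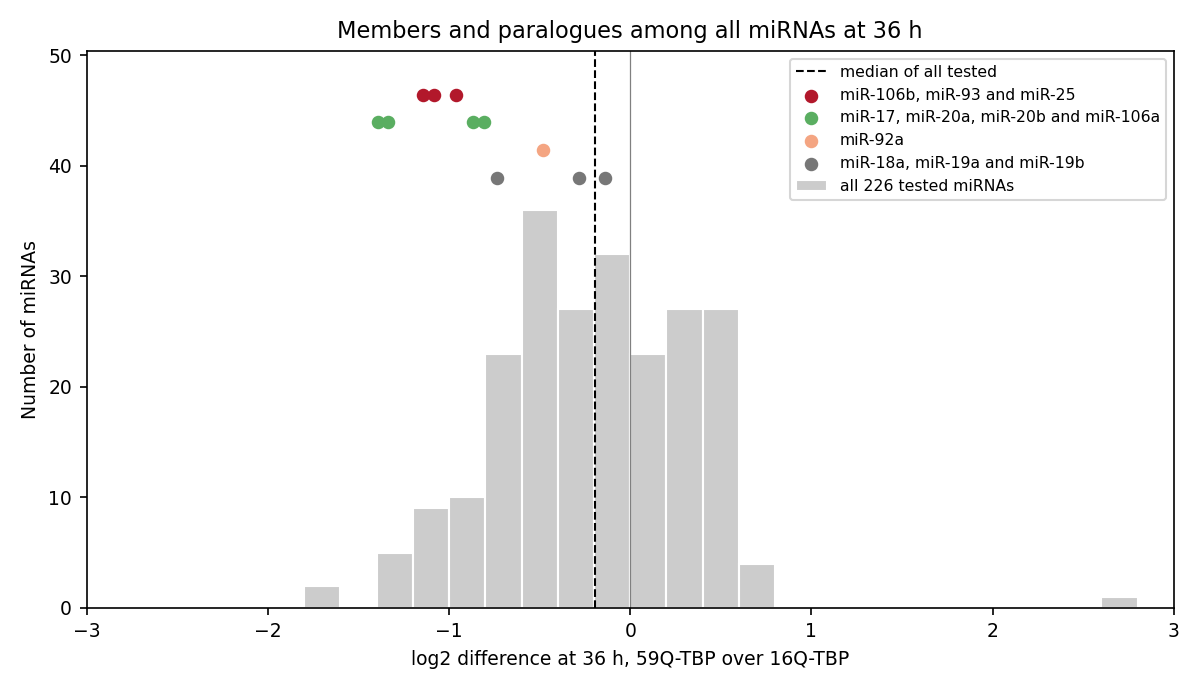
Histogram of the log2 difference at 36 h, 59Q-TBP over 16Q-TBP (horizontal axis), for all 226 tested miRNAs (number of miRNAs on the vertical axis), with dots for the members and their paralogues at arbitrary heights. The dashed line is the median, -0.19. The members lie at -0.96 to -1.15 among the 4 miRNAs of the miR-106b seed family, and miR-92a lies at -0.48.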

How the data were processed

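Total RNA, extracted with Trizol per the labels' protocols, was hybridised to one-colour Agilent mouse miRNA arrays. Per the file headers, the deposited scanner files come from Agilent Feature Extraction 9.5.1.1 and give each spot's mean and local background intensity and a processed intensity with background subtracted. The deposited table of log2 values equals log2 of the net signal, without scaling, to within 5e-09, and served as an alternative.

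The processed signal was averaged over unflagged spots, divided by each array's 75th percentile over 290 probes above background on all arrays, raised to at least 0.0581 (the lowest value above background, as a median of arrays) and taken to log2. A probe counted as above background where at least 50% of its spots carried the scanner flag. Each miRNA was averaged over its probes above background on the 3 arrays of any group, which left 557 probes of 226 miRNAs.

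Limma 3.58.1 in R 4.3.3 fitted 6 group means over 18 arrays with 12 residual degrees of freedom, and p-values were adjusted by Benjamini-Hochberg over all 226. Single values were tested by exact permutation. The steps were tested on simulated data. Replicates are called biological without stating separate cultures, so the p-values cover only the spread of these samples, which may be technical. No pair of arrays looked like a duplicate, with correlations up to 0.985 within a group and 0.989 between groups. Named miRNAs were the members, their other arms, those with the same seed, residents of the paralogous clusters and the 3 closest by correlation. The members and lists were chosen with earlier results of these data known. Sequences are RefSeq's for GRCm38.p6, and all 3 members matched by name.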

Additional observations from a re-analysis of the deposited data

How the results depend on the processing

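At 36 h all 3 members kept their direction in every alternative run. With all arrays or without the 4 least correlated, values lay between -0.17 and -1.15 for miR-106b, -0.09 and -1.08 for miR-93 and -0.16 and -1.34 for miR-25, and none passed outside the leave-one-out settings. Relative to the median miRNA they lay between -0.47 and -1.01, -0.35 and -0.88, and -0.28 and -1.12. The smallest values came from the deposited table (miR-106b, miR-93) and the floor 4 times higher (miR-25). Dim signal limits miR-25 most. The causes were not tested, apart from those set by fewer arrays.

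Values below are in the order miR-106b, miR-93, miR-25 where 3 are given, and each turned sign unless a call is named. The deposited log2 table put 59Q versus 16Q at 24 h at -0.28, -0.31 and -0.27, and no scaling at -0.39, -0.51 and -0.53, and quantile normalization put miR-25 there at -0.016. At 60 h normexp gave -0.092, -0.090 and -0.084, and the percentile over all probes -0.082 and -0.010 for miR-106b and miR-93. Without the 4 least correlated arrays the 24 h differences were -0.24, -0.30 and -0.19, and at 60 h -0.26, -0.24 and -0.28. Those 4 include replicates 1 and 2 of 16Q-TBP at 24 h, so any value without them that uses this group rests on its replicate 3 alone. Averaged over times, the higher floor put miR-25 at 0.038, and the slide block put miR-93 at 0.016 and miR-25 at 0.24.

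For 24 h to 36 h in 16Q, miR-106b was -0.036 with quantile normalization, -0.046 with the percentile over all probes, -0.75 without scaling, -0.56 in the deposited table and -0.47 without the 4 arrays, and miR-93 was 0.037 with the brightest probe or that probe alone, 0.048 with probes above background on all arrays, 0.032 with the higher floor and 0.059 with its other bright probe. For 24 h to 60 h in 16Q, the miR-25 call was lost with normexp (-0.30), the brightest probe or that probe alone (-1.22), the deposited table (-0.81), no filter on dim probes (-1.35), the higher floor (-0.28) and the slide block (-1.46). In that comparison miR-106b passed without scaling (-1.38), where 18.1% of all miRNAs passed. miR-25 passed from 36 h to 60 h in 16Q (-1.02) with only the arrays compared, where 15.0% of all miRNAs passed. Without the 4 arrays that difference stayed at -1.02.

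With the slide as a block 59Q at 60 h rests on 1 array, assumed to vary like the other groups. There miR-25 passed at 60 h (1.76, with 21.7% of all miRNAs called), from 36 h to 60 h in 59Q (1.88, 26.1% called) and for the dependence on time (F = 11.2, 24.3% called), and from 24 h to 60 h in 59Q it was 0.11. Without the 4 arrays, miR-106b (-0.997) and miR-25 (-1.36) passed from 24 h to 36 h in 59Q (5.75% of all called), all members passed from 24 h to 60 h in 59Q (-1.04, -1.06 and -1.82, 19.0% of all called), and from 36 h to 60 h in 59Q they were -0.046, -0.23 and -0.46.

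The within-array differences between members by construct, near 0 throughout, changed sign without scaling (0.040 for miR-106b minus miR-93, 0.094 for miR-106b minus miR-25, 0.054 for miR-93 minus miR-25), with the brightest probe (0.037, 0.080 and 0.043), in the deposited table (0.012 and 0.017 for the pairs with miR-25), with probes above background on all arrays (0.031 for miR-106b minus miR-93, no value for miR-25) and without the 4 arrays (0.016 and 0.051 for the pairs with miR-25). Between 60 h and 24 h, miR-106b minus miR-93 turned to -0.059 with normexp, -0.00482 without scaling, -0.026 with the brightest probe, -0.091 in the deposited table and -0.20 with the higher floor, where miR-106b minus miR-25 was -0.32 and miR-93 minus miR-25 -0.13.

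Leaving out 1 array at a time, 59Q versus 16Q at 36 h ranged from -1.50 to -0.84 for miR-25, and at 60 h from -0.26 to 0.38, -0.24 to 0.40 and -0.28 to 0.81. From 24 h to 36 h in 59Q the ranges were -1.61 to -0.997, -1.55 to -0.83 and -2.02 to -1.36, and in 16Q -0.14 to 0.38 for miR-106b and -0.21 to 0.23 for miR-93. miR-25 ranged from -1.82 to -0.73 from 24 h to 60 h in 59Q, -1.50 to -1.17 in 16Q, and from 36 h to 60 h in 59Q the ranges were 0.27 to 0.91, 0.12 to 0.86 and -0.16 to 0.94. At 24 h 59Q versus 16Q ranged from 0.09 to 0.61, 0.00088 to 0.44 and 0.04 to 0.37. The within-array differences by construct ranged from -0.049 to 0.0071 (miR-106b minus miR-93), -0.13 to 0.074 (miR-106b minus miR-25) and -0.082 to 0.076 (miR-93 minus miR-25).

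Counts of miRNAs called over all alternatives ranged from 0 to 50, 1 to 10 and 0 to 49 for 59Q versus 16Q at 24, 36 and 60 h (1 each as reported), 1 to 2 averaged (1) and 0 to 55 for dependence on time (0). In 16Q they ranged from 0 to 8 for 24 h to 36 h (0), 0 to 99 for 24 h to 60 h (80) and 0 to 34 for 36 h to 60 h (1), and in 59Q from 0 to 63 (0), 0 to 43 (3) and 0 to 59 (2). Same-numbered replicates correlated between -0.67 and 0.75 after removal of group means, and no comparison had all 3 correlations over 0.1. The replicate numbers were therefore not treated as pairs. Whether same-numbered replicates were prepared together is not given, and these correlations cannot settle it. With a replicate block no member call changed, miR-25 from 24 h to 60 h in 16Q stayed at -1.35 (adjusted p 0.0333), and miRNAs called there numbered 68.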

Other observations

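The shift of the miR-25 ratios with time was seen in the values first and only then tested, by exact two-sided permutation of 60 h and 24 h within each construct (400 relabellings, smallest possible p 0.005), so the test is not independent of the choice. miR-106b minus miR-25 was 0.66 higher at 60 h than at 24 h (exact p = 0.02, 0.0267 adjusted over 4 relations), and miR-93 minus miR-25 0.59 higher (exact p = 0.02). miR-106b minus miR-93 shifted by 0.07 (exact p = 0.36). Set against miR-92a, its relative from another cluster, miR-25 was lower at 60 h than at 24 h by -1.15 on the log2 scale (exact p = 0.02). Either miR-25 probe alone gave 0.72 and 0.59 for miR-106b minus miR-25. Normexp background correction gave 0.0072 and the deposited log2 values gave 0.003, and leaving out 59Q-TBP replicate 2 at 60 h gave 0.53 with an exact p of 0.05. The 24 h and 60 h arrays were on different slides, so time and slide cannot be told apart, and miR-25 at 60 h was near background, with 1 of its 2 probes above it on all 16Q-TBP arrays and on 59Q-TBP replicates 2 and 3.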
